A study of Mus musculus with 7 samples.

Results

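The regulators of G protein signalling examined here were 10 listed mouse genes, Rgs1, Rgs2, Rgs3, Rgs4, Rgs5, Rgs10, Rgs16, Rgs17, Rgs19 and Rgs22, of 18194 genes measured. A gene was read from probe sets that carry its symbol alone, and 9 of the 10 had one. Rgs22 matched no probe set in the annotation used and was not analysed here. Where a gene had several, its main probe set was chosen by the highest mean log2 signal over all 7 arrays, genotypes pooled. The members were measured on Affymetrix expression arrays, in whole testis of mice aged 15 to 20 weeks, with 3 arrays of Phf13 knockout and 4 arrays of wild type animals. The labels give no strain, no description of the deleted allele and no treatment for either genotype, and do not say whether arrays came from separate animals. P-values therefore measure the spread between these arrays, which may be partly technical. The symbols were listed with results of the genotype contrast known, so the members' fold changes and calls describe them and support nothing further.

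RGS proteins switch off signals from G protein-coupled receptors. An activated receptor loads a G protein alpha subunit with GTP, and the RGS domain speeds the hydrolysis of that GTP, which returns the subunit to its resting state. In the testis, luteinizing hormone acts on Leydig cells and follicle-stimulating hormone on Sertoli cells through receptors that couple mainly to the stimulatory G protein Gs and raise cyclic AMP. Most RGS proteins act on the Gi and Gq classes of alpha subunit. Rgs2 is known for its preference for Gq, the class that activates phospholipase C.

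The values were the authors' deposited log2 signals, with array medians of 5.01 to 5.08, and precision is limited by having 7 arrays. Phf13, the targeted gene, had log2 signals of 6.04, 5.83 and 5.71 in knockout testis, against 8.66, 8.64, 8.73 and 8.54 in wild type testis. Levels of different probe sets cannot be compared and the table holds no detection calls, so marker signals cannot show which cell types were present or absent in the labelled tissue. Array titles open with a number that the labels do not explain. Sorted by its first 4 digits, the arrays fall into 3 title-number groups. The first holds knockout 1 and wild type 1, the second holds knockout 2 beside wild type 2 and wild type 3, and the third holds knockout 3 and wild type 4. Arrays of the same title-number group deviated together from their genotype means: over all genes the correlation of deviations was 0.103 to 0.319 for the 4 pairs of a knockout and a wild type array within a group. It was −0.166 to 0.0227 for the 8 pairs across groups, 7 of them below 0, although deviations that sum to 0 make some pairs negative by construction.

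5 of the 10 listed genes lie on chromosome 1 in the RefSeq gene table, which places 11 of 21 numbered Rgs genes there. Rgs5 and Rgs4 are next to each other, and Rgs13 lies between Rgs2 and Rgs1. The upstream sequences of Rgs2 and Rgs5, the members with the largest positive fold changes, are shown because they differ in base composition. They are RefSeq sequences of build GRCm38.p6, 250 bases before the gene start, written 5′ to 3′ on the gene's own strand. Rgs2 lies on the minus strand, at chr1:144004150-144004399, and Rgs5 on the plus strand, at chr1:169655251-169655500. Capitals mark CCAAT (or ATTGG on the other strand) and GGGCGG (or CCGCCC).
Rgs2: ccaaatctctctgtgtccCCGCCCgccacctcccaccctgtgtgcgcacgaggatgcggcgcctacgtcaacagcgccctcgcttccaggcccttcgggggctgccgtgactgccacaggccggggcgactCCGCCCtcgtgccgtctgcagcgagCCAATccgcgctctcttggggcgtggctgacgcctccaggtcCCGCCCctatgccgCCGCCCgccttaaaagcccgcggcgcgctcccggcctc
Rgs5: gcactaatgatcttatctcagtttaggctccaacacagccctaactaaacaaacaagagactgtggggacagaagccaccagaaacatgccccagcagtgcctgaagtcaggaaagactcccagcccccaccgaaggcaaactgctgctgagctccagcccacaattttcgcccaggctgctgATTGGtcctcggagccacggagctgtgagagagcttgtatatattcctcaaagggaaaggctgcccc
The Rgs2 stretch holds 30 CpG dinucleotides and the Rgs5 stretch holds 4. Over the full 300-base window, which adds 50 bases after the start, Rgs2 had 33 CpG and Rgs5 had 6, with a median of 7 over 32851 promoters. Rgs2 had 4 matches to GGGCGG, which 35.7% of all promoters hold at least once, and Rgs5 had 0. Both had 1 match to CCAAT, which 37.4% of promoters hold. The full cyclic AMP response element TGACGTCA, searched on both strands, matched 0 of the 11 promoters listed for 8 members and 1.79% of all promoters. The steroidogenic factor element CAAGGTCA also matched 0 of the 11 and 1.56% of all. A match describes letters only, and the arrays measured nothing at these sequences.

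Rgs2 was the member that rose in knockout testis. Its log2 signals were 8.26, 7.93 and 8.60 in the knockout arrays, against 6.79, 6.74, 7.19 and 7.67 in the wild type arrays. All 3 knockout arrays lay above all 4 wild type arrays, and wild type 4 was the nearest to them. The mean was 8.26 ± 0.34 in knockout and 7.10 ± 0.43 in wild type testis (SD, n = 3 and 4), a log2 fold change of 1.17 (SE 0.24, limma adjusted p = 0.0189), or 2.24-fold. Within the title-number groups the difference was 1.47, 0.97 and 0.93, and a fit with these groups as a block gave 1.11 (limma adjusted p = 0.0228). The call rests on few arrays: with 1 array left out the log2 fold change was 1.00 to 1.36, and the adjusted p passed 0.05 without knockout 1 (0.0613), knockout 3 (0.0711) or wild type 1 (0.0578). Without both knockout 3 and wild type 4 the log2 fold change was 1.19 (limma adjusted p = 0.0748).

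Over the members, 1 of 9 passed limma's adjusted p of 0.05, where 16.1% of all genes did. With the title-number block it was again 1 of 9, beside 12.7% of all genes. In the direction of a rise it was 1 of 9, beside 9.07% of all genes, and 0 of 9 fell, beside 7.05%. The members that passed at an unadjusted p under 0.05 were 3 of 9, namely Rgs2, Rgs10 and Rgs19, beside 6146 of all 18194 genes. The genotypes were fully separated, with no overlap of arrays, for 2 of 9 members, Rgs2 (higher) and Rgs19 (lower), beside 28.0% of all genes. The share of called members was therefore near the background. The median log2 fold change of the 9 was −0.13, and that of all genes was −0.045. In bulk tissue, fewer cells of a type and less RNA per cell cannot be told apart.

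**Figure D1:**
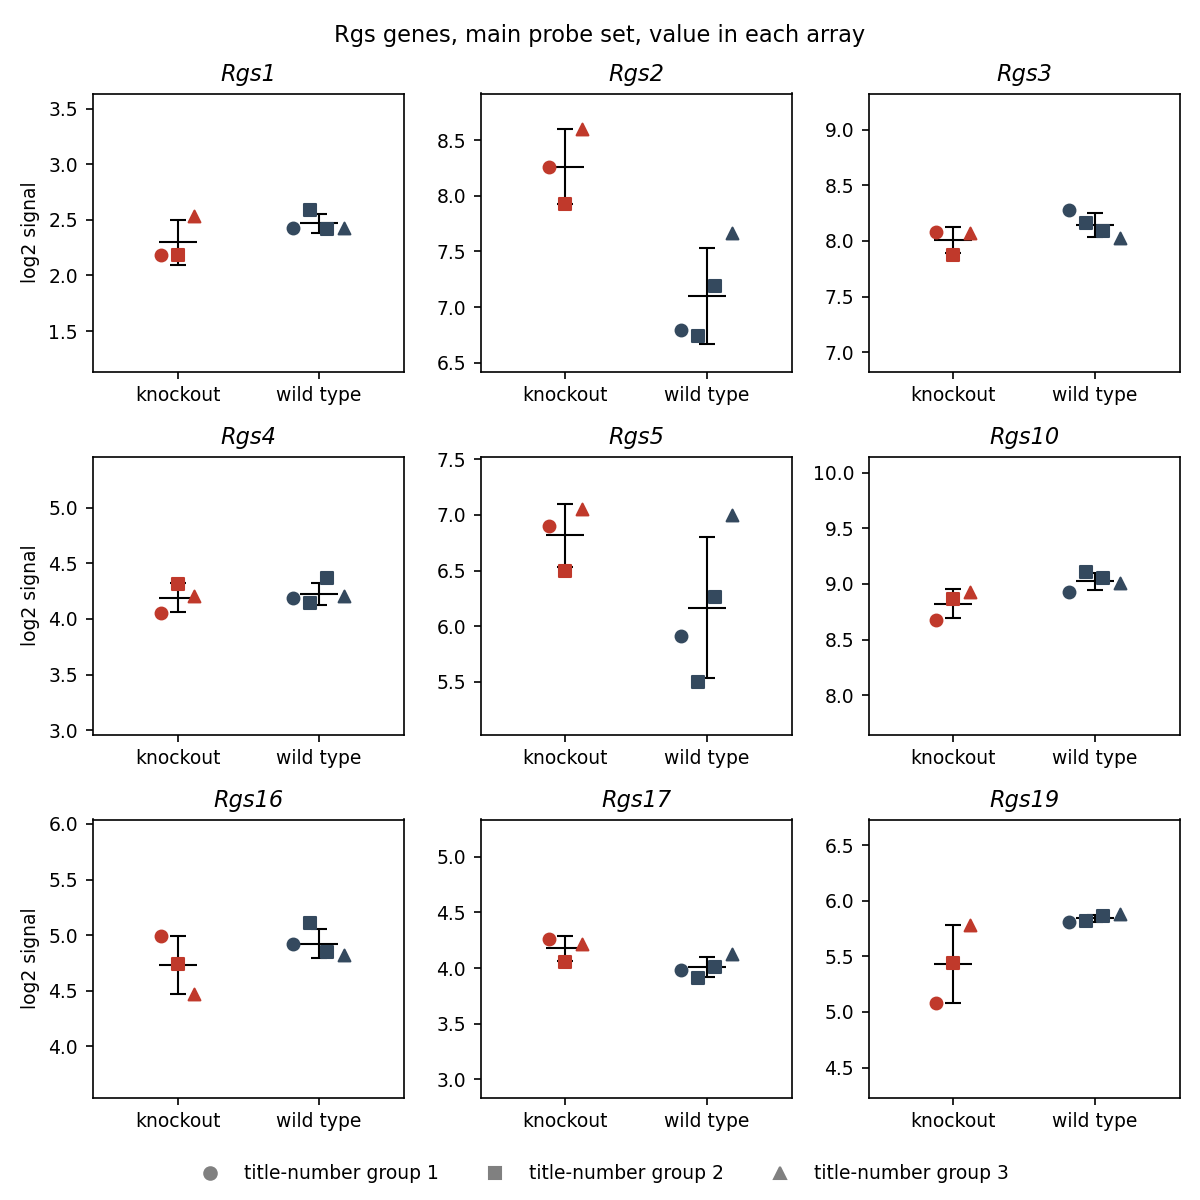
Log2 signal of the main probe set of each of the 9 measured Rgs genes (y axis) in knockout arrays (red) and wild type arrays (blue). Each point is an array, its shape gives the title-number group, the horizontal line is the mean and the bars are 1 SD. Every panel spans the same range of log2 signal; the Rgs2 knockout arrays sit between 7.93 and 8.60, above the highest wild type array at 7.67.

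The other probe sets of Rgs2 gave the same picture where the signal was bright. The probe set with the next highest mean had log2 signals of 7.89, 7.43 and 8.31 in knockout arrays, against 6.52, 6.48, 6.89 and 7.17 in wild type arrays. The one after it had 7.01, 6.96 and 7.77 in knockout arrays, against 6.03, 5.97, 6.19 and 6.71 in wild type arrays. Neither overlapped between genotypes, and their log2 fold changes were 1.11 (SE 0.23) and 1.02 (SE 0.23), with limma p-values adjusted over all 34958 single-symbol probe sets of 0.0223 and 0.0299. The second of these is of a type that can bind related transcripts. The dimmest of the 4, with a mean of 3.53, had a log2 fold change of 0.17 (SE 0.12, limma adjusted p = 0.377). Averaging all 4 gave 0.87 (limma adjusted p = 0.0193).

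Rgs5, an RGS gene of the same R4 subfamily and a common marker of pericytes and vascular smooth muscle, had a positive fold change that did not pass. Its main probe set read 6.90, 6.50 and 7.05 in knockout arrays, against 5.91, 5.50, 6.26 and 7.0 in wild type arrays. Wild type 4 lay within the knockout range, while the other 3 wild type arrays lay below it. This gave a log2 fold change of 0.65 (SE 0.31, limma adjusted p = 0.183), or 0.99, 0.62 and 0.05 in the 3 title-number groups. Without wild type 4 it was 0.93 (limma adjusted p = 0.0363).

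The probe set of Rgs5 with the next highest mean read 5.49, 5.74 and 5.72 in knockout arrays, against 4.93, 4.86, 5.06 and 5.43 in wild type arrays. The genotypes did not overlap on it. Its log2 fold change of 0.58 (SE 0.14) had a limma p of 0.0325 adjusted over all probe sets. The remaining 2 probe sets, dim and of types that can bind related transcripts, had log2 fold changes of 0.39 (SE 0.18) and 0.24 (SE 0.10) and did not pass. All 4 were higher in knockout testis, so the direction was shared but the call depended on the probe set.

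Rgs4, next to Rgs5 on the chromosome and active on Gi and Gq, was not called. Its main probe set read 4.05, 4.31 and 4.21 in knockout arrays, against 4.19, 4.14, 4.37 and 4.21 in wild type arrays, a log2 fold change of −0.04 (SE 0.08, limma adjusted p = 0.783). The genotypes overlapped throughout. Its other probe sets disagreed in sign, at 0.27 (SE 0.10) and −0.08 (SE 0.07), and the mean of all 3 gave 0.05. Rgs13, the gene between Rgs2 and Rgs1, had a log2 fold change of 0.05 (SE 0.07, limma adjusted p = 0.679) at a mean signal of 2.03.

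Rgs1 and Rgs16, the remaining chromosome 1 members, belong to the R4 subfamily too. Rgs1, known from lymphocytes and other blood cells, read 2.18, 2.18 and 2.53 in knockout arrays, against 2.43, 2.59, 2.42 and 2.43 in wild type arrays. Knockout 3 lay within the wild type range and the other knockout arrays below it, with a log2 fold change of −0.17 (SE 0.10, limma adjusted p = 0.258). Rgs16, which acts on Gi and Gq, read 4.99, 4.74 and 4.47 in knockout arrays, against 4.92, 5.11, 4.85 and 4.82 in wild type arrays. Its genotypes overlapped, with a log2 fold change of −0.19 (SE 0.12, limma adjusted p = 0.312). Both are dim, and none of their signals was shown to lie above background.

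Rgs3, an R4 member on chromosome 4 with several protein forms, differed between its probe sets. The main one read 8.08, 7.87 and 8.07 in knockout arrays, against 8.28, 8.16, 8.09 and 8.03 in wild type arrays, a log2 fold change of −0.13 (SE 0.08, limma adjusted p = 0.296). The genotypes overlapped there. They did not on 2 of its other 3 probe sets, where the log2 fold change was −0.39 (SE 0.11) and −0.28 (SE 0.10), with limma p-values adjusted over all probe sets of 0.0554 and 0.0999. The first of these read 5.43, 5.05 and 5.03 in knockout arrays, against 5.63, 5.66, 5.49 and 5.45 in wild type arrays. The remaining one had the same mean, 5.53, in both genotypes. Which transcript each probe set reads is not given in the files.

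Rgs10, one of the smallest RGS proteins, acts on Gi and is abundant in microglia and macrophages. It read 8.68, 8.86 and 8.93 in knockout arrays, against 8.93, 9.11, 9.05 and 9.01 in wild type arrays. Knockout 3 equalled wild type 1 and the rest of the knockout arrays lay lower. This gave a log2 fold change of −0.20 (SE 0.08, limma adjusted p = 0.113).

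The RZ subfamily was represented by Rgs19 and Rgs17, which act on Gi-class subunits including Gz. Rgs19 read 5.08, 5.44 and 5.78 in knockout arrays, against 5.81, 5.82, 5.86 and 5.88 in wild type arrays. Every knockout array was below every wild type array, but the gap between knockout 3 and wild type 1 was small and the knockout arrays spread widely (SD 0.35, against 0.03 in wild type). This gave a log2 fold change of −0.41 (SE 0.14, limma adjusted p = 0.0817), or −0.73, −0.40 and −0.10 in the 3 title-number groups. Without knockout 1 it was −0.23 (limma adjusted p = 0.179). A further Rgs19 probe set, of a type that can bind related transcripts, had −0.44 (SE 0.14), with 1 knockout array inside the wild type range.

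Rgs17 ran the other way by a small amount. It read 4.26, 4.05 and 4.22 in knockout arrays, against 3.98, 3.91, 4.01 and 4.13 in wild type arrays. Wild type 4 lay above knockout 2, and the other wild type arrays lay below every knockout array. That is a log2 fold change of 0.17 (SE 0.08, limma adjusted p = 0.169), and its other probe set had 0.08 (SE 0.09).

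**Figure D2:**
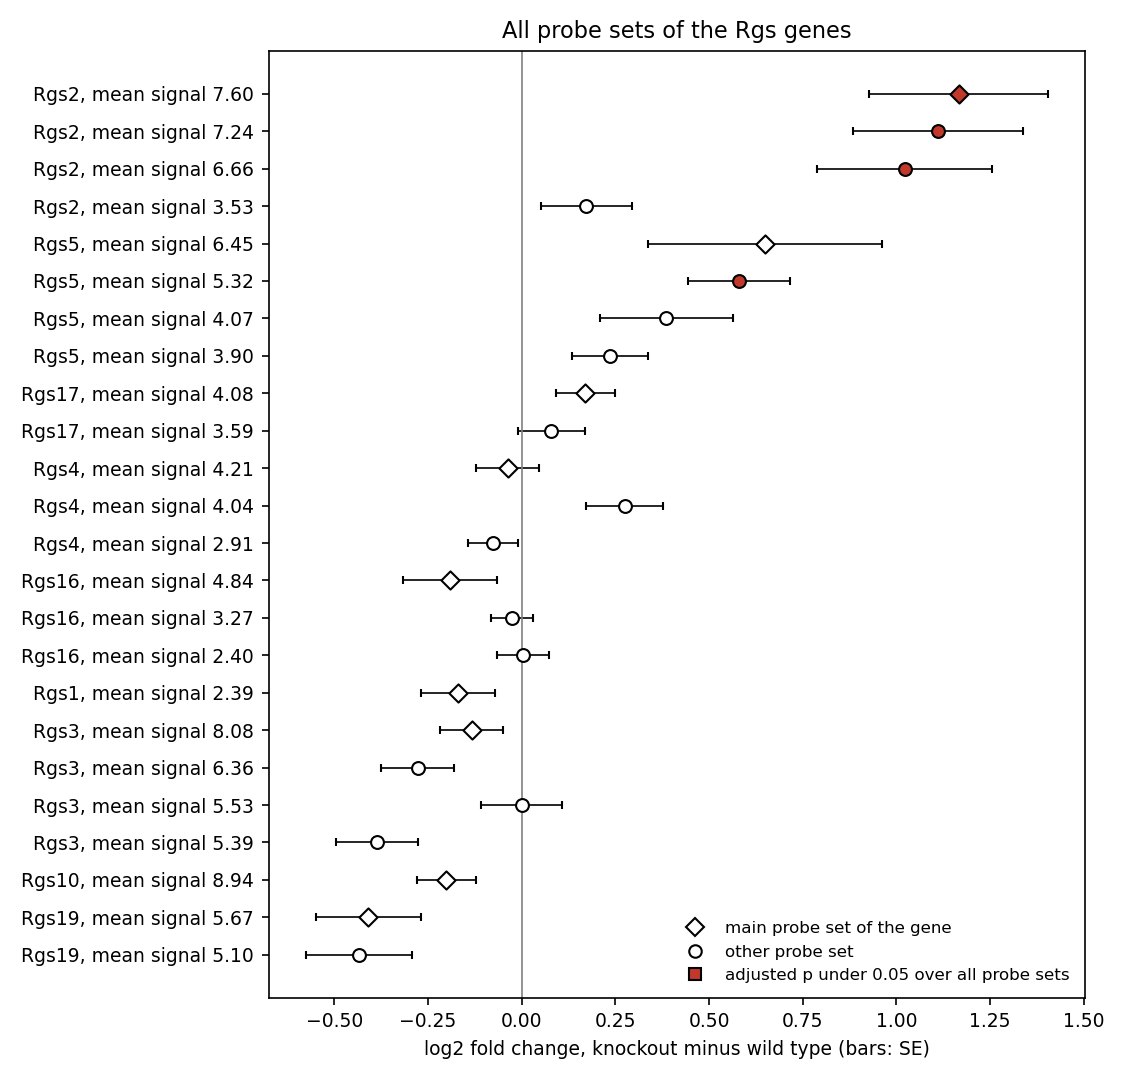
Log2 fold change, knockout minus wild type (x axis, bars are SE), of all 24 single-symbol probe sets of the 9 measured Rgs genes, with the mean log2 signal of each over 7 arrays in its label. Filled points passed a limma adjusted p of 0.05 over all probe sets: 3 of 4 for Rgs2 and 1 of 4 for Rgs5. Of the 24, 12 were higher and 11 lower in knockout testis, and 1 did not differ in mean.

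**Figure D3:**
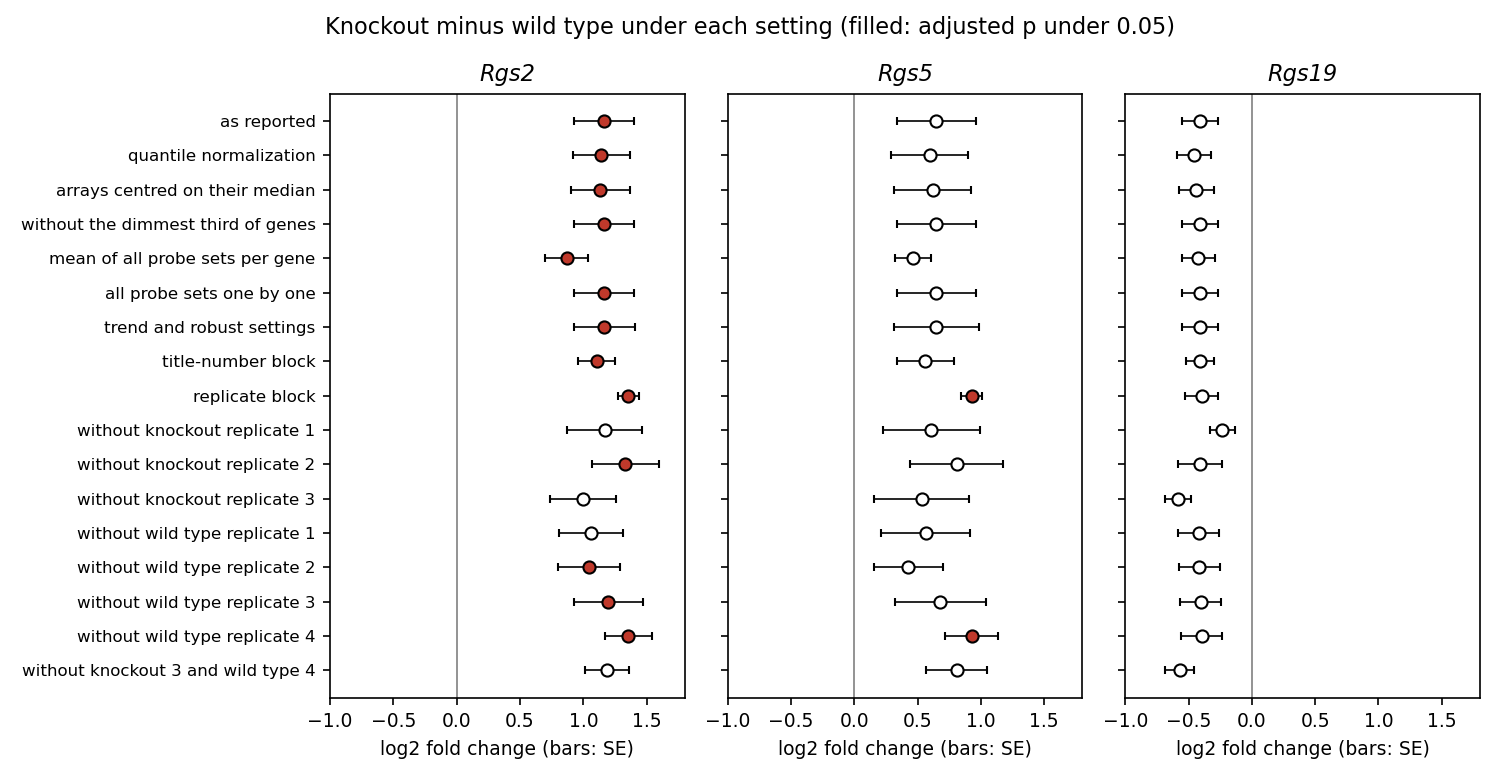
Log2 fold change, knockout minus wild type (x axis, bars are SE), of Rgs2, Rgs5 and Rgs19 under each processing setting and with arrays left out (rows). Filled points had a limma adjusted p under 0.05: Rgs2 lost its call without knockout 1, without knockout 3, without wild type 1 and without knockout 3 and wild type 4 together, and Rgs5 gained one without wild type 4 and with a replicate block.

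On their main probe sets, the arrays of Rgs2 and Rgs5 ran in the same order within each genotype: knockout 3, 1, 2 from high to low, and wild type 4, 3, 1, 2. None of the other 7 members compared with Rgs2 had this order, and 1.96% of all other genes did. The other Rgs5 probe sets did not have it either. The Rgs5 probe set that passed read 5.49, 5.74 and 5.72 in knockout 1, 2 and 3. Among 10 lists of cell type markers, the summed signal of 1, the Leydig cell list, ran in the same order. This list of the testosterone-producing cells had a summed linear signal of 9569 to 12087 in knockout arrays and 5139 to 7407 in wild type arrays. The order belongs to the sum, in which the brightest markers weigh most. Taken singly, only Pdgfra of these Leydig cell markers had it. In knockout 1, 2 and 3, Cyp17a1 read 11.38, 11.61 and 11.73, and Hsd3b1 read 10.21, 9.24 and 10.18. Such an order over 3 and 4 arrays is a description with no test.

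Cell type markers differed between genotypes beside the Rgs2 rise. Over all genes 9.07% rose and 7.05% fell, and the median log2 fold change was −0.045. Of 13 Leydig cell markers 8 rose and 0 fell (median log2 fold change 0.80), and of 18 Sertoli cell markers 16 rose and 0 fell (0.59). Of 18 peritubular myoid, smooth muscle and pericyte markers 5 rose and 0 fell (0.15). The summed signal of all 18 was 3823 to 4132 in knockout arrays and 2785 to 3171 in wild type arrays. The 5 that rose were Acta2, Mylk, Myl9, Cald1 and Ptch1. The pericyte markers Pdgfrb (−0.20), Abcc9 (−0.05), Cspg4 (−0.01), Notch3 (0.006), Mcam (0.05) and Kcnj8 (0.07) did not pass. Nor did the muscle markers Tagln (0.38), Myh11 (0.38), Smtn (0.24), Cnn1 (0.24), Des (−0.025), Lmod1 (−0.02) and Actg2 (−0.12). Of 19 macrophage markers 7 rose and 0 fell (0.36), with a summed signal of 4349 to 5365 in knockout arrays and 4136 to 4233 in wild type arrays. Fold changes were positive for 15 of the 19 and negative for 4. Aif1 (−0.17) and Fcgr3 (−0.47), which had the highest mean signals on the list and so weigh most in the sum, were among the 4. The Sertoli sum was 20206 to 22204 in knockout arrays and 12171 to 16071 in wild type arrays. Of 13 endothelial markers 0 passed limma's adjusted threshold in either direction, and the sum was 575 to 658 in knockout arrays and 578 to 606 in wild type arrays. Among germ cells, 4 of 13 spermatogonia markers rose and 0 fell (median 0.21), while 0 rose and 3 fell of 15 spermatocyte markers (−0.09), of 13 round spermatid markers (−0.19) and of 15 elongating spermatid markers (−0.07). With the title-number block, 0 spermatogonia, 0 round spermatid and 0 elongating spermatid markers passed limma's adjusted threshold in either direction. The same block left 12 Sertoli, 7 Leydig and 5 macrophage markers that rose, against 16, 8 and 7 without it. The 5 peritubular myoid, smooth muscle and pericyte markers that rose and the 3 spermatocyte markers that fell were unchanged in number. The round spermatid sum was 28810 to 29270 in knockout arrays and 30750 to 33270 in wild type arrays, and the elongating spermatid sum was 98969 to 100122 in knockout arrays and 101780 to 108471 in wild type arrays. The spermatocyte and spermatogonia sums overlapped between genotypes. The arrays give every marker a value, so none is listed at 0. The part of these cell types in the Rgs2 difference was not tested.

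The genes whose profile over the 7 arrays came closest to Rgs2, by the root mean square distance after taking off the wild type mean, were Nrk (0.0923 log2 units), Gsta2 (0.131), Fabp5 (0.131), Adh1 (0.140) and Selenop (0.143). Nrk, a kinase gene, read 6.19, 6.06 and 6.61 in knockout arrays, against 5.01, 4.73, 5.24 and 5.67 in wild type arrays. On the same scale, the log2 fold changes of these 5 genes were 1.12, 1.12, 1.20, 1.15 and 1.01, and for all but Adh1 the genotypes did not overlap. With the mean of all its probe sets, Nrk had a log2 fold change of 0.66. Leaving out single arrays, the call held in 6 of 7 fits for Fabp5, in 4 for Nrk and Selenop and in 2 for Gsta2 and Adh1. For Rgs19, the member with the largest negative fold change, the closest were Gadl1 (0.0751), Hsbp1l1 (0.0799), Dct (0.101), Stn1 (0.101) and Adssl1 (0.103). Of these, Dct and Adssl1 fell, with log2 fold changes of −0.45 and −0.40, and their calls held in 1 and 2 of those 7 fits. Dct lost its call with the title-number block (limma adjusted p = 0.0501).

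The remaining Rgs genes showed no call. Of 10 measured, among them the R7 genes Rgs6, Rgs7, Rgs9 and Rgs11 and the R12 genes Rgs12 and Rgs14, limma called 0 in either direction. An unadjusted p under 0.05 was reached by 2 of the 10, beside 6146 of all 18194 genes. The 2 were Rgs11, with a log2 fold change of 0.29 (SE 0.12), and Rgs9, with −0.16 (SE 0.07). Of 3 measured genes for partner proteins of the R7 subfamily, 1 rose, 0 fell and 2, Rgs7bp and Rgs9bp, did not pass. Gnb5, the beta subunit that R7 proteins need for stability, rose by 0.31 on the log2 scale (SE 0.07, limma adjusted p = 0.0258), or 0.18 with the mean of its probe sets.

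Of 14 other genes for proteins with an RGS or RGS-like domain, 1 rose and 1 fell. For this list and those below, the shares over all genes were 9.07% that rose and 7.05% that fell (median log2 fold change −0.045). Grk6, a receptor kinase gene, rose by 0.35 (SE 0.08), and the call was lost with the mean of all its probe sets (0.20, limma adjusted p = 0.0870). Grk4, a receptor kinase gene known for its expression in testis, had log2 signals of 9.07, 8.97 and 9.01 in knockout arrays, against 9.39, 9.27, 9.26 and 9.45 in wild type arrays. It fell by 0.33 (SE 0.07, limma adjusted p = 0.0213).

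Upstream of the RGS proteins, 4 of 26 measured receptor genes rose, 1 fell and 21 did not pass (median log2 fold change 0.08). The lysophosphatidic acid receptor gene Lpar1 rose by 0.53 (SE 0.11), the chemokine receptor gene Cxcr4 by 0.58 (SE 0.12) and the vasopressin receptor gene Avpr1a by 0.60 (SE 0.13). With the mean of all their probe sets, Lpar1 rose by 0.27 and Avpr1a by 0.43. The thrombin receptor gene F2r (0.52, SE 0.13) rose and the adrenergic receptor gene Adra1b (−0.29, SE 0.08) fell; these 2 and Gnai2, Fos and Crem were added to the named genes after their values were seen. F2r rose by 0.33 with the mean of its probe sets, and Adra1b lost its call with the title-number block (limma adjusted p = 0.0831). Fshr, the Sertoli cell receptor for follicle-stimulating hormone, had a log2 fold change of 0.36 (SE 0.12, limma adjusted p = 0.0688). Lhcgr was not analysed here.

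Among the G protein alpha subunits of all classes, 4 of 15 rose, 0 fell and 11 did not pass (median 0.10). Gnai1, a Gi subunit gene, had log2 signals of 8.10, 8.29 and 8.27 in knockout arrays, against 7.45, 7.18, 7.79 and 7.60 in wild type arrays. It rose by 0.72 (SE 0.13), or 0.54 with the mean of its probe sets. Gnaq, the Gq subunit gene, rose by 0.59 (SE 0.10), or 0.39 with the mean of its probe sets. Gnas, the Gs subunit gene of a locus with several transcripts, rose by 0.66 (SE 0.09). The mean of all Gnas probe sets gave 0.14 (limma adjusted p = 0.0913), so its call depended on the probe set. Gnai2, a further Gi subunit gene, rose by 0.42 (SE 0.10) and lost its call with the title-number block (limma adjusted p = 0.0522). Of 15 beta and gamma subunit genes 2 rose and 1 fell: Gng12 rose by 0.56 (SE 0.10), Gng11 by 0.33 (SE 0.08), and Gng3 fell by 0.43 (SE 0.06). With the mean of its probe sets, Gng12 rose by 0.38. Gng11 lost its call with the title-number block (limma adjusted p = 0.0555).

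Among 8 other regulators and arrestins, 0 rose and 1 fell: Gpsm2, which binds Gi subunits in their resting state, fell by 0.34 (SE 0.09). Its call was lost with the title-number block (limma adjusted p = 0.0560). Downstream, 8 of 37 effector genes rose, 1 fell and 28 did not pass (median 0.01). The adenylyl cyclase gene Adcy7 rose by 0.77 (SE 0.12), or 0.60 with the mean of its probe sets. The protein kinase A catalytic subunit gene Prkacb rose by 0.58 (SE 0.09), or 0.18 with the mean of its probe sets. Kcnj9, a potassium channel gene opened by beta and gamma subunits, read 6.77, 6.93 and 6.59 in knockout arrays, against 7.65, 7.65, 7.81 and 7.63 in wild type arrays, and fell by 0.92 (SE 0.09), or 0.50 with the mean of its probe sets. Of 18 genes known to be induced by cyclic AMP signalling, 4 rose, 1 fell and 13 did not pass (median near 0, at 0.0004). Cyp11a1 (0.58, SE 0.08, and 0.26 with the mean of its probe sets), Cyp17a1 (0.61, SE 0.16) and Junb (0.42, SE 0.11) rose. The first 2 are also Leydig cell markers. The immediate early gene Fos (0.52, SE 0.15) rose too. Crem, a cyclic AMP response modulator that is also on the round spermatid list, fell by 0.26 (SE 0.07); its call was lost with the title-number block (limma adjusted p = 0.0809) and with the mean of its probe sets (−0.12, limma adjusted p = 0.224).

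Many of these pathway calls rested on few arrays. Leaving out each array in turn, the calls of Kcnj9, Adcy7, Gng3 and Cyp11a1 held in all 7 fits. Those of Gnas, Gnaq, Prkacb and Gng12 held in 6 and that of Gnai1 in 5. Grk4, Grk6, Lpar1, Cxcr4 and Gnai2 kept the call in 4 fits, and Gnb5, Avpr1a, Gng11 and F2r in 3. The calls of Junb, Fos and Crem held in 2 fits, and those of Gpsm2, Cyp17a1 and Adra1b in 1. With the title-number block, 4 pathway genes passed that had not passed without it, namely Ackr3 (log2 fold change 0.83, SE 0.19), Gpsm1 (0.51, SE 0.11), Egr1 (0.49, SE 0.09) and Star (0.89, SE 0.19), named after their values were seen. With that block 1 of the 15 beta and gamma subunit genes, Gng12, rose and 1, Gng3, fell. The main probe sets of Gnas, Gnai1, Adcy7, Grk6 and F2r are of a type that can bind related transcripts.

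**Figure D4:**
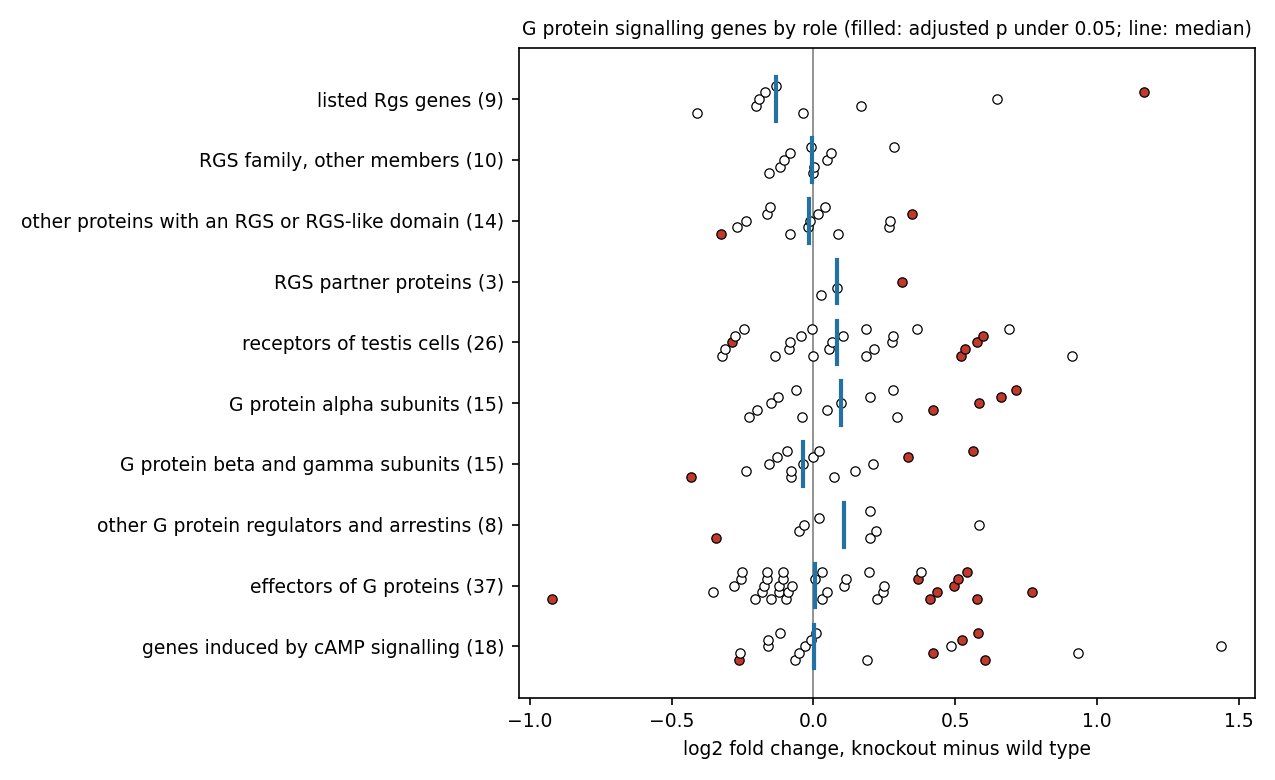
Log2 fold change, knockout minus wild type (x axis), of each measured gene in lists of G protein signalling genes ordered by role (rows, with the number measured in parentheses). Filled points had a limma adjusted p under 0.05 and vertical lines are medians. The listed Rgs genes have 1 filled point, Rgs2 at 1.17, and the other Rgs genes have 0.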

How the data were processed

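The authors' deposited table holds log2 signals of 45101 probe sets in 7 arrays (3 knockout, 4 wild type; groups from the labelled genotype). RNA was extracted with Trizol and 2 ug labelled, per the labels' protocols. The submitters' processing notes name Affymetrix Expression Console 1.4.1; summarisation, background correction and normalization are not given in the sources used here. The log2 scale was read from the range of values, 1.59 to 13.92.

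Of the probe sets, 34958 had 1 symbol in a platform annotation, 932 had several and 9211 had none or were not listed. No filter on dim signals and no further normalization were applied. The contrast was fitted over all 18194 genes by limma 3.58.1 under R 4.3.3 (two-sided moderated test) with Benjamini-Hochberg adjustment; "rose" and "fell" mean an adjusted p under 0.05. Fold changes are knockout minus wild type. The fit was tested on simulated data. Promoters and gene order came from RefSeq, GRCm38.p6; promoters matched 8 members by symbol.

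The members and gene lists were chosen with earlier results of these data known, and lists share genes. Named genes were all members, Phf13, Fshr, up to 3 called genes of smallest p in each pathway list, and the 5 genes most like the members of largest rise and fall; 5 more were added after their values were seen. For marker lists counts, medians and sums are given. Single markers were added after their values were seen, to show how a list was split, and are not counted among the named genes. Alternatives were normalization, a filter, probe set choice, trend and robust settings, title-number and replicate blocks, and leaving out arrays.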

Additional observations from a re-analysis of the deposited data

Results flagged for a closer look

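In 2 of 45 genes examined, 1 of the 4 wild type arrays lay far from the other 3 by Dixon's test; chance alone flags about 1 in 20 groups. Rgs1 read 2.59 in wild type 2, against 2.42 to 2.43 in the other wild type arrays, at a signal not shown to lie above background. Kcnj9 read 7.81 in wild type 3, against 7.63 to 7.65 in the others.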

How the results depend on the processing

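Of 140 values recomputed for the members under alternatives, 131 kept their direction and their side of the threshold; Rgs2 lost its call in 4, Rgs5 gained one in 2, and Rgs4 changed sign in 3 (0.053 with the mean of all probe sets, and −0.098 to 0.033 with 1 array left out). For the other 36 named genes 414 of 569 values kept both, 148 lost their call and 7 gained one. Of the 33 calls among all named genes, Rgs2 included, 27 were lost without knockout 3, 22 without wild type 1, 20 without knockout 1, and 5 to 15 without any one of the rest. With 1 array left out, the count of genes past the threshold was 175 (without knockout 3) to 2574, against 2934 with all arrays; the count of members was 0 to 2 and that of members without overlap 2 to 5. Without both knockout 3 and wild type 4, which was chosen after seeing the data, the 3 counts were 4 genes, 0 members past the threshold and 7 members without overlap. Fewer arrays also make it easier not to overlap. The share of all genes without overlap was not counted with arrays left out, so these member counts have no background beside them. With the mean of all probe sets 1 member, Rgs2, did not overlap. With a replicate block 2 members passed, Rgs2 (1.36) and Rgs5 (0.93). That block leaves wild type 4 out of the comparison, and same-numbered arrays deviated together for 2 of 3 numbers (correlations 0.182, 0.103 and −0.143). The replicate numbers were therefore not taken to pair arrays. The title-number groups, in which all 4 pairs of a knockout and a wild type array deviated together, were fitted as a block instead. That fit left 2317 genes and 1 member past the threshold. The filter on dim genes removed Rgs1, Rgs4, Rgs16 and Rgs17, which have no value there. Dim signals limit what can be said of these 4.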

Other observations

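Some dim probe sets of the Rgs genes returned the same value in several arrays. A probe set of Rgs16 read 3.28 in 6 of 7 arrays, in all 4 wild type arrays among them. The value 3.28 is the most frequent in the table, with 1765 of 315707 values, and 140 probe sets hold 1 value in 6 or more arrays. A probe set of Rgs4 and one of Rgs5 read 3.98 in several arrays each, a value that occurs 1097 times.

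The CpG content of the members' promoters varied widely. Over the 300-base window Rgs10 had 34 CpG and Rgs17 had 27, against a median of 7 over all promoters, while Rgs4 had 13, and the 3 promoters listed for Rgs19 had 27, 37 and 4. Rgs10, with 34 CpG beside 33 for Rgs2, had a log2 fold change of −0.20, against 1.17 for Rgs2. Whether CpG content is related to the fold changes was not tested.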
